A study of Mus musculus with 8 samples.

Results

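The genes described here are 10 feedback regulators of mitogen-activated protein (MAP) kinase signalling, out of 37310 genes in the counts table. They are the phosphatases Dusp1, Dusp4, Dusp5, Dusp6 and Dusp10, the Sprouty genes Spry1, Spry2 and Spry4, and the Sprouty-related genes Spred1 and Spred2, chosen by symbol. MAP kinases are switched on by phosphorylation at the end of a chain of kinases that starts at growth factor receptors and Ras (the ERK branch) or at stress and cytokine inputs (the p38 and JNK branches). Dual-specificity phosphatases remove the activating phosphates, whereas Sprouty and Spred proteins act further up, between receptor, Ras and Raf. Many of these genes are themselves transcribed in response to MAP kinase activity, which makes them feedback regulators, and in epithelial cells TGF-β can engage ERK, p38 and JNK besides the Smad proteins.

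The cells were NMuMG, a mouse epithelial line derived from normal mammary gland and grown with serum and insulin, and their RNA was sequenced. Control cells were compared with cells in which CRISPR-Cas9 had deleted a stretch around promoter and exon 1 of Lnc-Nr6a1 (Gm13507 in the annotation), a long noncoding RNA gene. Edited cells had been sorted singly and their clones screened, which gave clones without the deletion and clones with a monoallelic or a biallelic one. The paper writes the depleted cells as homozygous, and which clone or clones gave the libraries is not stated. Each genotype was left untreated or received 10 ng/ml TGF-β1 for 2 h, with 2 libraries per group and 8 in all. Library totals were 7871090 and 7800602 counts in untreated control cells, 11210495 and 9895118 in treated control cells, 4297832 and 7181737 in untreated libraries labelled knockout, and 12761749 and 13574397 in treated ones. Levels are given as CPM, counts scaled by TMM to a common library size. A level of 3 counts, the most that a count of 0 allows, lay between 0.238 CPM in the deepest library and 0.661 CPM in the shallowest, and these floors cover counting error only.

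Some libraries could not be told apart by the targeted gene and some stood apart from their replicates. The targeted Gm13507 had 3 and 14 counts in untreated control cells and 11 and 7 in untreated libraries labelled knockout. With TGF-β it had 25 and 35 counts in control cells and 0 in both libraries labelled knockout. The gene therefore separated the treated libraries by label and did not separate the untreated ones, so that the edited libraries are called "labelled knockout" throughout. TGF-β treatment showed in both genotypes, since Skil and Snai1, direct targets of Smad signalling, were higher in each treated library than in each untreated one. Snai1 stood at 0.724 and 0.732 CPM in untreated and at 15.3 and 12.5 CPM in treated control cells, and at 1.54 and 1.46 CPM in untreated and 26.1 and 21.9 CPM in treated libraries labelled knockout. Of 5 TGF-β response genes, 3 rose and 1 fell in control cells and 3 rose in libraries labelled knockout. The shares of all tested genes were 4.69%, 4.47% and 4.25%. Summed epithelial markers ranged from 4864 to 10035 CPM per library, led by Krt18 or Krt8, although Cldn3 had no count in any library and Epcam had none in all but 1. Every treated library (6730 to 10035 CPM) lay above every untreated one (4864 to 5596 CPM) in this sum. Of 6 tested epithelial markers, edgeR called Krt8, Krt18 and Krt14 higher with TGF-β in control cells (log2 fold changes 0.65, 0.96 and 2.33) and Krt14 in libraries labelled knockout (3.66), against 4.69% and 4.25% of all tested genes. DESeq2 also called Cldn4 higher in both genotypes (adjusted p = 0.0302 and 0.00853, against 0.0528 and 0.0601 by edgeR) and Krt8 in libraries labelled knockout (0.59, adjusted p = 0.0268, against 0.0792 by edgeR). The calls of Krt8 and Krt18 were lost without either untreated control library, replicate 1 of treated control cells or either untreated library labelled knockout (adjusted p up to 0.202 and 0.178). Cdh1, which encodes E-cadherin, was called higher in libraries labelled knockout between the treated genotypes (0.61, adjusted p = 0.0433 by edgeR), also by DESeq2 and limma-voom, and this call was lost without any 1 of the treated libraries or of the untreated libraries labelled knockout (adjusted p up to 0.226). Cdh1 was 1 of 6 tested epithelial markers, and 8.47% of all tested genes were called higher between the treated genotypes. The part of these markers in the responses to TGF-β and in the differences between the genotypes was not tested. Mesenchymal markers summed to at most 4.85 CPM, immune markers to at most 5.32 CPM, endothelial markers to at most 0.847 CPM, adipocyte markers to at most 0.220 CPM and muscle markers to at most 0.441 CPM.

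The replicates of the treated groups differed from each other in the genes described here. Dusp5 was at 30.6 and 8.36 CPM in replicates 1 and 2 of treated control cells and at 9.05 and 71.3 CPM in those of treated libraries labelled knockout. Dusp6 was at 101 and 30.1 CPM in the former and at 27.6 and 81.5 CPM in the latter. Spry2 was at 8.15 and 3.07 CPM in the former and at 5.30 and 22.9 CPM in the latter. All 3 were thus high in replicate 1 of treated control cells and in replicate 2 of treated libraries labelled knockout, and low in the other library of each group. The higher library exceeded the lower one in CPM by 3.67-fold for Dusp5, 3.36-fold for Dusp6 and 2.66-fold for Spry2 in treated control cells. In treated libraries labelled knockout these ratios were 7.88-fold, 2.95-fold and 4.32-fold. Differences above 1 on the log2 scale in both groups, in those directions, were found for these 3 of 9 tested genes, and for 135 of all 13028 tested genes (1.04%).

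The same split was seen in 5 of 16 transcripts known to respond to ERK activity (31.2%), namely Fosl1, Jun, Ier3, Phlda1 and Epha2, in Dusp7 and Errfi1, and in Cldn4, 1 of 6 tested epithelial markers (16.7%), with ratios of 8.58-fold and 5.27-fold. Fosl1, an AP-1 subunit induced by ERK, was at 91.3 and 18.5 CPM in treated control cells and at 28.7 and 189 CPM in treated libraries labelled knockout. Ier3 was at 149 and 24.4 CPM in the former and at 24.0 and 247 CPM in the latter. Among 17 receptors and adaptors, 10 genes of the ERK cascade, 16 of the p38 and JNK cascades, 8 kinases downstream and 5 TGF-β response genes, no gene met both conditions. A difference above 1 between replicates, in either direction, was found for 9.60% of all tested genes in treated control cells and for 4.26% in treated libraries labelled knockout, against 3.93% and 6.54% in the untreated groups. Summed epithelial markers were likewise higher in replicate 1 of treated control cells (10035 against 7114 CPM) and in replicate 2 of treated libraries labelled knockout (9145 against 6730 CPM), and their part in these differences was not tested. No label names a batch, and samples were kept in their labelled groups.

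**Figure D1:**
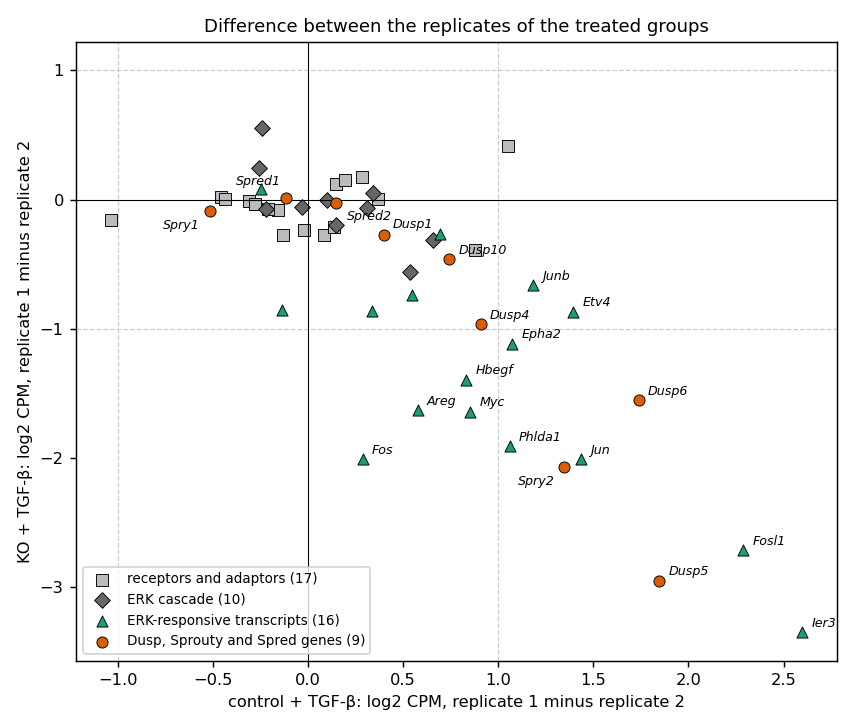
Difference between the 2 replicates of each treated group (log2 CPM, replicate 1 minus replicate 2), with control cells on the horizontal and libraries labelled knockout (KO) on the vertical axis and each point a gene of the lists named in the key. Dusp5, Dusp6 and Spry2 lie far on the side where control replicate 1 and knockout-labelled replicate 2 were high, while Spry1, Spred1 and Spred2 lie near 0 on the vertical axis.

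In untreated control cells the most abundant of the 10 transcripts per kilobase of exon was that of Dusp6, at 26.8 ± 4.86 CPM per kb (SD, n = 2). Dusp4 followed at 19.2 ± 2.22 CPM per kb, Spred1 at 14.9 ± 2.68 and Dusp10 at 8.42 ± 1.48. Spry1 was at 5.45 ± 0.666 CPM per kb, Spred2 at 4.44 ± 0.372, Spry2 at 4.16 ± 0.734, Dusp1 at 3.35 ± 0.131 and Dusp5 at 2.92 ± 0.684. Neighbours in this order were separated in both libraries except for Spred2 and Spry2 and for Dusp1 and Dusp5, whose libraries overlapped. With TGF-β, Dusp10 reached 29.0 ± 10.4 CPM per kb in control cells and 30.9 ± 6.95 in libraries labelled knockout, while Spry1 was the lowest tested gene in both, at 1.07 ± 0.286 and 0.609 ± 0.0283 CPM per kb. Spry4 came last, with 1 count in each untreated control library, 12 and 0 counts in treated control cells and 0 counts in all 4 libraries labelled knockout. It did not pass the filter on low counts, so that 9 of the 10 genes were tested.

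**Figure D2:**
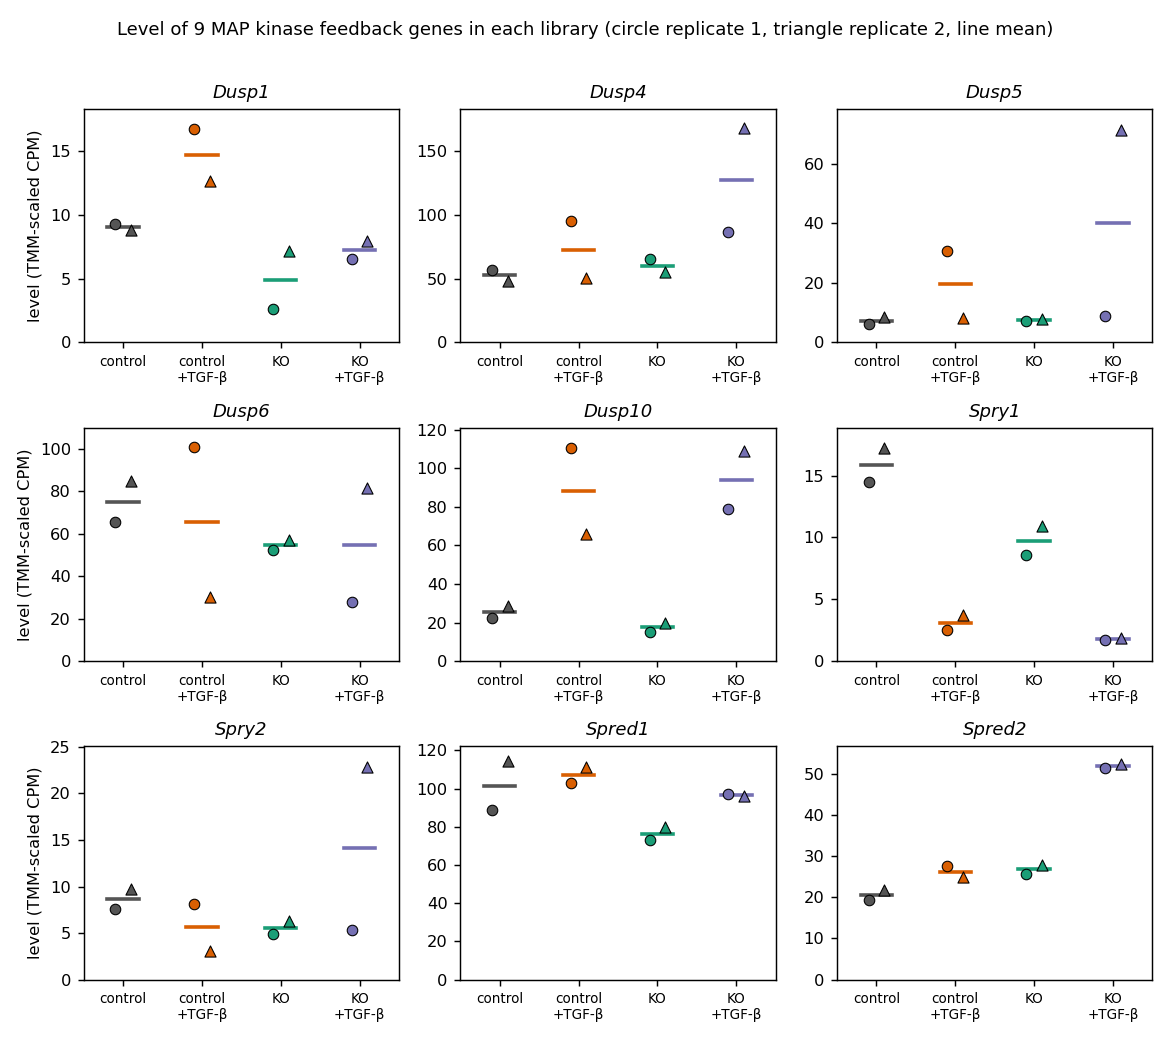
Level of each tested gene in each library (CPM, linear axes from 0), with a circle for replicate 1, a triangle for replicate 2 and a line at the mean of each group; KO stands for libraries labelled knockout. Dusp10 lies higher and Spry1 lower in every treated library than in every untreated one, and Spred2 lies highest in the treated libraries labelled knockout, at 51.3 and 52.3 CPM.

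The first question is which feedback genes responded to 2 h of TGF-β in control cells, and the second whether they did so in libraries labelled knockout. Dusp10 rose and Spry1 fell in both, and Spred2 rose in libraries labelled knockout. A gene was called at an adjusted p below 0.05 with an absolute log2 fold change above 0.5. In control cells 1 of 9 genes was called higher, against 4.69% of all tested genes, and 1 of 9 was called lower, against 4.47%. For libraries labelled knockout 2 of 9 were called higher, against 4.25%, and 1 of 9 was called lower, against 2.57%. The median log2 fold change of the 9 genes was 0.35 in control cells and 0.95 in libraries labelled knockout, and that of all tested genes was 0.02 and 0.00. It was 0.12 in control cells without replicate 1 of the treated cells, and 0.37 in libraries labelled knockout without replicate 2 of the treated libraries. Without the filter on low counts edgeR also called Dusp5 higher in control cells, and Dusp4, Dusp5 and Spry2 in libraries labelled knockout. Of all 20463 genes then tested, 1019 and 1206 were called higher. In control cells fewer of the 9 genes were called higher without replicate 1 of the untreated cells. In libraries labelled knockout more were called higher without replicate 1 of the treated libraries, and fewer without replicate 2 of the treated or either of the untreated libraries. Such fits leave a group with 1 library, so that these changes are no result of their own. Since RNA came from whole cultures, fewer cells expressing a gene and less of its RNA per cell cannot be told apart. The p-values weigh each difference against a spread estimated over all 8 libraries, and they do not cover differences between clones.

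Dusp10 encodes a phosphatase that acts mainly on p38 and JNK. Its transcript was at 22.4 and 28.8 CPM in untreated control cells and at 111 and 65.9 CPM in treated ones (25.6 ± 4.50 and 88.3 ± 31.6, SD, n = 2). The libraries labelled knockout were at 15.2 and 19.7 CPM untreated and at 79.0 and 109 CPM treated (17.4 ± 3.15 and 93.9 ± 21.1, SD, n = 2). All 4 treated libraries lay above all 4 untreated ones, with no overlap. Dusp10 rose 3.45-fold in control cells (log2 fold change 1.78, SE 0.28, Benjamini-Hochberg adjusted p = 0.00618 by edgeR) and 5.33-fold in libraries labelled knockout (2.41, SE 0.29, adjusted p = 0.00201 by edgeR). Without replicate 1 of untreated control cells the call in control cells was lost, at a log2 fold change of 1.61 and edgeR's adjusted p of 0.0855. The gene (ENSMUSG00000039384.8) lies on the plus strand of chromosome 1 at 185837181 to 185899515 (NCBIM37), with the lowly counted 1700056E22Rik on the opposite strand, sharing no exon base with it.

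Spry1 encodes a Sprouty protein, an inhibitor of Ras-ERK signalling below receptor tyrosine kinases. It was at 14.5 and 17.2 CPM in untreated control cells and at 2.53 and 3.70 CPM in treated ones (15.8 ± 1.93 and 3.12 ± 0.830, SD, n = 2). In libraries labelled knockout it was at 8.60 and 10.9 CPM untreated and at 1.71 and 1.83 CPM treated (9.75 ± 1.63 and 1.77 ± 0.0822, SD, n = 2). Every treated library lay below every untreated one. With TGF-β its log2 fold change was -2.35 in control cells (SE 0.31, adjusted p = 0.00306 by edgeR), a 5.08-fold fall. For libraries labelled knockout it was -2.46 (SE 0.33, adjusted p = 0.00328 by edgeR), a 5.51-fold fall. Both calls held in all 17 alternatives, with values from -2.64 to -2.11 and from -2.86 to -2.26. The alternative without the fold change threshold reuses the main fit and could not lose a call. Spry1 (ENSMUSG00000037211.5) lies on the plus strand of chromosome 3 at 37538869 to 37543520.

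Spred2 encodes a membrane-associated Sprouty-related protein, which with Spred1 brings neurofibromin to Ras. It was at 19.3 and 21.7 CPM in untreated and at 27.6 and 24.9 CPM in treated control cells (20.5 ± 1.72 and 26.2 ± 1.90, SD, n = 2). The libraries labelled knockout were at 25.6 and 27.9 CPM untreated and at 51.3 and 52.3 CPM treated (26.7 ± 1.65 and 51.8 ± 0.724, SD, n = 2). The treated libraries labelled knockout stood above the other 6 libraries, which lay between 19.3 and 27.9 CPM. Spred2 rose 1.93-fold with TGF-β in libraries labelled knockout (log2 fold change 0.95, SE 0.17, adjusted p = 0.0109 by edgeR), while in control cells the log2 fold change was 0.35 (SE 0.17, adjusted p = 0.209 by edgeR). The call was lost without replicate 1 (0.90, adjusted p = 0.107 by edgeR) or replicate 2 (1.03, adjusted p = 0.0856) of the untreated libraries labelled knockout, and without replicate 2 of the treated ones (0.97, adjusted p = 0.0626). Spred2 (ENSMUSG00000045671.11) lies on the plus strand of chromosome 11 at 19824378 to 19924029.

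Spred1, on chromosome 2, was more even. It was at 88.5 and 114 CPM in untreated and at 103 and 111 CPM in treated control cells, and at 73.2 and 79.6 CPM in untreated and 97.1 and 96.2 CPM in treated libraries labelled knockout. The groups overlapped in control cells and were separate in libraries labelled knockout. Its log2 fold change was 0.08 in control cells (SE 0.16, adjusted p = 0.788 by edgeR; -0.09 without replicate 1 of the untreated cells) and 0.34 in libraries labelled knockout (SE 0.16, adjusted p = 0.245 by edgeR).

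Dusp6, on chromosome 10, encodes the cytoplasmic phosphatase specific for ERK. Untreated control cells had 65.4 and 84.6 CPM, and untreated libraries labelled knockout 52.0 and 56.8 CPM. In each genotype 1 treated library lay above both untreated ones and the other below them. With TGF-β its log2 fold change was -0.19 in control cells (SE 0.55, adjusted p = 0.858 by edgeR) and 0.00 in libraries labelled knockout (SE 0.55, adjusted p = 0.999 by edgeR). Its direction depended on single libraries. In control cells it was -1.33 without replicate 1 and 0.43 without replicate 2 of the treated cells, and 0.01 without replicate 2 of the untreated ones. Among libraries labelled knockout it was 0.61 without replicate 1 and -0.95 without replicate 2 of the treated libraries, and -0.05 without replicate 1 of the untreated ones.

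Dusp1, Dusp4 and Dusp5 encode nuclear phosphatases, of which Dusp5 acts on ERK and the others on several MAP kinases. Dusp5, on chromosome 19, was at 6.03 and 8.42 CPM in untreated control cells and at 7.05 and 7.71 CPM in untreated libraries labelled knockout. Against these, 1 treated library of each genotype was several times higher, and the other was at 8.36 CPM in control cells and at 9.05 CPM in libraries labelled knockout, so that the groups overlapped in the former and not in the latter. Its log2 fold change with TGF-β was 1.44 in control cells (SE 0.85, adjusted p = 0.309 by edgeR) and 2.44 in libraries labelled knockout (SE 0.87, adjusted p = 0.137 by edgeR). Without replicate 1 of the treated libraries labelled knockout the latter was 3.29 and was called (adjusted p = 0.00937 by edgeR), and without replicate 2 it was 0.32 (adjusted p = 0.869).

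Dusp4, on chromosome 8, was at 56.9 and 48.3 CPM in untreated and at 94.9 and 50.5 CPM in treated control cells, and at 65.0 and 54.8 CPM in untreated and 86.1 and 168 CPM in treated libraries labelled knockout. The groups overlapped in control cells and were separate in libraries labelled knockout. Its log2 fold change was 0.47 in control cells (SE 0.34, adjusted p = 0.415 by edgeR; -0.07 without replicate 1 of the treated cells) and 1.09 in libraries labelled knockout (SE 0.34, adjusted p = 0.0972 by edgeR). The latter was called by DESeq2 (adjusted p = 0.0101). In edgeR it was called without replicate 1 of the treated libraries labelled knockout (1.51, adjusted p = 0.0212), and without replicate 1 or 2 of treated control cells (1.11 in each, adjusted p = 0.0306 and 0.0301). It was 0.56 without replicate 2 of the treated libraries labelled knockout (adjusted p = 0.467). Dusp1, on chromosome 17, was at 9.29 and 8.79 CPM in untreated and at 16.7 and 12.6 CPM in treated control cells, which did not overlap, and its log2 fold change was 0.70 (SE 0.37, adjusted p = 0.258 by edgeR). In libraries labelled knockout Dusp1 was at 2.65 and 7.18 CPM untreated and at 6.52 and 7.95 CPM treated, which overlapped (0.49, SE 0.40, adjusted p = 0.508 by edgeR).

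Spry2, the Sprouty gene on chromosome 14, was at 7.60 and 9.76 CPM in untreated control cells and at 4.85 and 6.25 CPM in untreated libraries labelled knockout. The treated libraries, split as described above, overlapped the untreated ones in both genotypes. The log2 fold change was -0.62 in control cells (SE 0.64, adjusted p = 0.576 by edgeR) and 1.33 in libraries labelled knockout (SE 0.65, adjusted p = 0.265 by edgeR). Without replicate 1 of the treated libraries labelled knockout the latter was 2.05 and was called (adjusted p = 0.0377 by edgeR), and without replicate 2 it was -0.05 (adjusted p = 0.983).

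**Figure D3:**
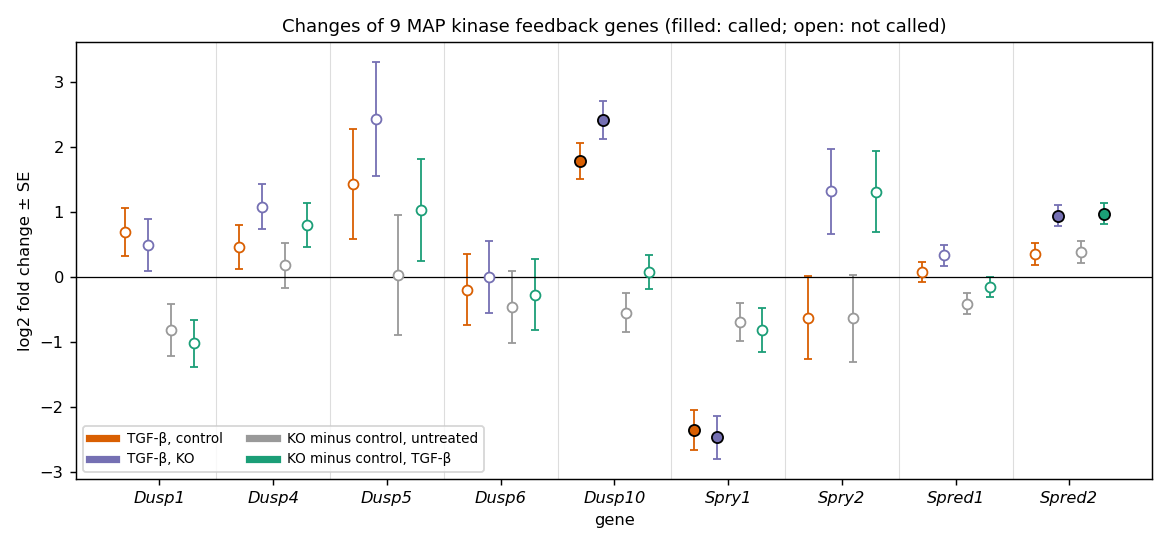
Log2 fold change of each tested gene in each of 4 comparisons (points, edgeR, n = 2 libraries per group), with lines for ± SE and filled points where the gene was called; KO stands for libraries labelled knockout. Filled are Dusp10 (1.78 and 2.41) and Spry1 (-2.35 and -2.46) with TGF-β in both genotypes, and Spred2 with TGF-β in libraries labelled knockout (0.95) and between the treated genotypes (0.98).

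The next question is how libraries labelled knockout differed from control cells. Since the clone or clones used are not stated, a difference between genotypes cannot be told apart from a difference between clones. Without TGF-β, edgeR called 0 of 9 genes, against 1.83% of all tested genes in either direction, and DESeq2 and limma-voom each called 0. By edgeR 3 of the 9 had an unadjusted p below 0.05, against 1936 of all 13028 tested genes. The lowest adjusted p-value of these 3 was 0.268, for Spred1 at a log2 fold change of -0.41 (SE 0.16, edgeR). Spry1 was at -0.69 (SE 0.29, adjusted p = 0.309 by edgeR), with both control libraries above both libraries labelled knockout. Genes on its chromosome 3 were lower as a whole, with a median log2 fold change of -0.34 over 641 tested genes in the untreated and in the treated comparison, whose part in the value of Spry1 was not tested. The median of the 9 genes was -0.46, against 0.02 for all tested genes, and it was -0.27 without replicate 2 of untreated control cells. Gm13507 did not separate these libraries. The median of chromosome 3, looked at because Spry1 lies there, had the same direction and size between the treated genotypes, whose libraries Gm13507 did separate. Whether the untreated libraries labelled knockout carry the deletion was not tested.

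After TGF-β, Spred2 was higher in libraries labelled knockout, the only one of the 9 genes that edgeR called between the treated genotypes. Its 51.3 and 52.3 CPM compared with 27.6 and 24.9 CPM in control cells, with no overlap. This was a 1.97-fold difference (log2 fold change 0.98, SE 0.16, adjusted p = 0.00646 by edgeR), which held in all 17 alternatives with values from 0.91 to 1.08. Again the alternative without the fold change threshold could not lose the call. Thus 1 of 9 genes was called higher, against 8.47% of all tested genes. For lower levels edgeR called 0 of 9, against 6.57%, with 2 at an unadjusted p below 0.05. In either direction 4 of the 9 were below it by edgeR, against 4086 of all 13028 tested genes. Of all tested genes DESeq2 called 965 and limma-voom 926 lower, and of the 9 DESeq2 called 0 and limma-voom 1. That was Dusp1, with 16.7 and 12.6 CPM in control cells against 6.52 and 7.95 CPM in libraries labelled knockout, which did not overlap. Its log2 fold change was -1.02 (SE 0.37, adjusted p = 0.0909 by edgeR), with an adjusted p of 0.0486 in limma-voom and of 0.0496 in edgeR without replicate 1 of the untreated libraries labelled knockout (-1.01). Spry1 was again lower without overlap, at a log2 fold change of -0.81 (SE 0.34, adjusted p = 0.139 by edgeR). Without the filter on low counts edgeR called Dusp4, Dusp5 and Spry2 higher and Dusp1 lower as well. Of all 20463 genes then tested, 1667 were called higher and 1156 lower. The crossed replicate block, an alternative chosen after seeing the data, also called Dusp4 higher, with 1539 of all 13028 tested genes. More of the 9 genes were called higher without replicate 1 of treated control cells, and without replicate 1 of the treated libraries labelled knockout. These fits leave a group with 1 library, so that these changes are no result of their own. The median of the 9 genes was 0.09, against -0.01 for all tested genes. It turned on the treated libraries, being 0.88 and -0.09 without replicate 1 or 2 of treated control cells and 0.32 and -0.15 without replicate 1 or 2 of the treated libraries labelled knockout.

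The genes whose treated replicates differed gave values between the treated genotypes that turned on single libraries. Dusp5 had a log2 fold change of 1.04 (SE 0.78, adjusted p = 0.399 by edgeR), and of -1.10 without replicate 2 of the treated libraries labelled knockout. Spry2 was at 1.32 (SE 0.63, adjusted p = 0.184 by edgeR), at -0.08 without replicate 2 of those libraries, and at 2.02 without replicate 1, where it was called (adjusted p = 0.0286). Neither gene separated the treated genotypes. Dusp6 was at -0.27 (SE 0.54, adjusted p = 0.779 by edgeR), at 0.88 without replicate 1 of treated control cells and at 0.32 without replicate 1 of the treated libraries labelled knockout. Dusp4 was at 0.80 (SE 0.34, adjusted p = 0.139 by edgeR), and was called without replicate 1 of treated control cells (1.35, adjusted p = 0.0248) or of the treated libraries labelled knockout (1.21, adjusted p = 0.0392). Genes on its chromosome 8 had a median log2 fold change of 0.18 between the untreated and 0.17 between the treated genotypes (695 tested genes). Cdh1, Rasa3 and Map2k7 lie there too, and the part of this shift in their differences was not tested. Dusp10 had close means, with a log2 fold change of 0.09 (SE 0.26, adjusted p = 0.850 by edgeR), at -0.23 without replicate 2 of treated control cells and at -0.15 without replicate 2 of the treated libraries labelled knockout.

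Whether the response to TGF-β itself differed between the genotypes was tested as the interaction. By edgeR 0 of 9 genes and 0% of all 13028 tested genes passed, with 1134 genes and 1 of the 9, Spred2, at an unadjusted p below 0.05. DESeq2 called 25 genes and limma-voom 0, with none of the 9 among them, and edgeR called 4 genes without replicate 1 and 6 without replicate 2 of treated control cells. Without the filter on low counts edgeR called 211 genes, among them Spry2 (2.01, adjusted p = 0.00682). Spred2 responded by 0.60 more on the log2 scale in libraries labelled knockout (95% confidence interval 0.07 to 1.12, adjusted p = 0.519 by edgeR). So its larger response there is not shown to differ from that in control cells. Dusp10 had an interaction of 0.63 (SE 0.39, adjusted p = 0.683 by edgeR) and Spry2 of 1.95 (SE 0.92, adjusted p = 0.595 by edgeR). For Spry1 it was -0.12 (SE 0.43, adjusted p = 0.970 by edgeR), with a 95% confidence interval from -1.09 to 0.86, and it was 0.01, 0.20 and 0.08 without replicate 1 of untreated control cells, replicate 2 of treated control cells and replicate 2 of the untreated libraries labelled knockout. The median interaction of the 9 genes was 0.60, against -0.00 for all tested genes. It was 1.09 and 0.33 without replicate 1 or 2 of treated control cells, and 0.09 without replicate 2 of the treated libraries labelled knockout.

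Of 6 further Dusp and Spred genes on a chosen list, Dusp7, Dusp8, Dusp16 and Spred3 had enough counts, while Dusp2 and Dusp9 did not pass the filter. Of these 4, edgeR called Dusp16 higher with TGF-β in both genotypes, against 4.69% and 4.25% of all tested genes. DESeq2 also called Dusp8 higher in libraries labelled knockout (1.64, adjusted p = 0.00870, against 0.0639 by edgeR). Dusp16, like Dusp10, encodes a phosphatase of JNK and p38. It was at 32.3 and 43.2 CPM in untreated and at 118 and 95.4 CPM in treated control cells, and at 28.4 and 48.4 CPM in untreated and 116 and 213 CPM in treated libraries labelled knockout. All treated libraries lay above all untreated ones. The log2 fold change was 1.50 in control cells (adjusted p = 0.0240 by edgeR) and 2.08 in libraries labelled knockout (adjusted p = 0.00663 by edgeR). The former call was lost without replicate 1 or 2 of untreated control cells (highest adjusted p 0.196), and the latter without replicate 1 of the untreated libraries labelled knockout (adjusted p = 0.0798). Dusp7, a phosphatase of ERK, was split like Dusp6, with 3.01-fold more CPM in replicate 1 than in replicate 2 of treated control cells and 2.99-fold more in replicate 2 than in replicate 1 of treated libraries labelled knockout.

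Further up the pathway, edgeR called 1 of 17 receptors and adaptors higher with TGF-β in each genotype, which was Egfr, the epidermal growth factor receptor, against 4.69% and 4.25% of all tested genes. Egfr was at 92.9 and 121 CPM in untreated and at 264 and 295 CPM in treated control cells, and at 81.3 and 93.0 CPM in untreated and 249 and 262 CPM in treated libraries labelled knockout. Every treated library was above every untreated one (log2 fold change 1.38, adjusted p = 0.00203 by edgeR, and 1.55, adjusted p = 0.00116), and both calls held with each library left out in turn. For libraries labelled knockout DESeq2 also called Shc1 higher (0.54, adjusted p = 0.0305) and Erbb3 lower (-0.91, adjusted p = 0.0486), and limma-voom called Erbb3 lower (-0.92, adjusted p = 0.0483). Of 6 tested genes for Ras proteins and their GTPase-activating proteins, edgeR called 0 in either genotype. At an unadjusted p below 0.05 by edgeR were 2 in control cells and 3 in libraries labelled knockout, against 3491 and 2956 of all 13028 tested genes. DESeq2 called 0 and 2 of them, against 1474 and 1242 of all tested genes, and limma-voom 0 and 0. In the ERK cascade 2 of 10 genes rose in each genotype, against the same shares of all tested genes, the kinase gene Map2k1 (0.67 and 0.78) and the scaffold gene Iqgap1 (0.68 and 0.83). Both of these calls were lost in each genotype when either untreated library of that genotype was left out, with edgeR's adjusted p up to 0.227 for Map2k1 and 0.123 for Iqgap1. The call of Map2k1 was also lost in control cells without replicate 1 of the treated cells, either untreated library labelled knockout or replicate 1 of the treated ones, and in libraries labelled knockout without either treated library.

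Of 16 ERK-responsive transcripts, 1 rose and 1 fell in control cells and 3 rose in libraries labelled knockout, with median log2 fold changes of 0.15 and 0.42. Of all tested genes, 4.69% rose and 4.47% fell in control cells and 4.25% rose in libraries labelled knockout, so that 1 of 16 in control cells is near the background. Junb, an AP-1 subunit, was at 137 and 144 CPM in untreated and at 589 and 259 CPM in treated control cells, and at 149 and 165 CPM in untreated and 497 and 787 CPM in treated libraries labelled knockout. It rose in both genotypes, without overlap (log2 fold change 1.59, adjusted p = 0.0234 by edgeR, and 2.03, adjusted p = 0.00994). Egr1, an immediate early gene, fell in control cells by 3.10 on the log2 scale (adjusted p = 0.0238 by edgeR), from 3.14 and 10.7 CPM to 0.750 and 0.847 CPM. Fos and Jun were called higher in libraries labelled knockout, at log2 fold changes of 2.87 and 2.70. Fos reached 12.6 and 51.4 CPM and Jun 31.0 and 125 CPM, with replicate 2 the higher in both. Each of these 5 calls was lost when some single libraries were left out. For Junb these were the untreated libraries of either genotype in control cells (highest edgeR's adjusted p 0.172) and those labelled knockout in the other comparison (0.110). For Egr1 they were replicate 2 of untreated and either replicate of treated control cells (0.171). For Fos they were both untreated and replicate 2 of the treated libraries labelled knockout (0.180), and for Jun these and either untreated control library (0.272). In limma-voom Egr1, Fos and Jun were not called (adjusted p = 0.0648, 0.159 and 0.175), whereas DESeq2 called all 3 and also Fos in control cells (1.65, adjusted p = 0.0237) and between the treated genotypes (1.58, adjusted p = 0.0149). Epha2 was called lower in control cells by limma-voom (-1.45, adjusted p = 0.0493).

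Among 8 other feedback genes of receptor and Ras signalling, edgeR called Socs2 and Trib1 higher with TGF-β in libraries labelled knockout (log2 fold changes 1.47 and 1.55). The share of all tested genes was 4.25%. In control cells Socs2 was at 3.86 and 5.37 CPM untreated and at 11.2 and 10.3 CPM treated, and Trib1 at 31.7 and 38.3 CPM untreated and at 81.4 and 54.1 CPM treated. Neither gene overlapped between these groups, with log2 fold changes of 1.22 (adjusted p = 0.0528 by edgeR) and 0.95 (adjusted p = 0.0929), which DESeq2 called (adjusted p = 0.0252 and 0.0239). The interaction was 0.25 for Socs2 and 0.59 for Trib1 (adjusted p = 0.924 and 0.752 by edgeR), so that the responses are not shown to differ. Between the treated genotypes Socs2 was called higher in libraries labelled knockout by DESeq2 (1.02, adjusted p = 0.0360) and not by edgeR (1.02, adjusted p = 0.0532). In libraries labelled knockout limma-voom did not call Socs2 (adjusted p = 0.0656), and DESeq2 and limma-voom called Trib3. Both edgeR calls were lost without either untreated library or replicate 2 of the treated libraries labelled knockout, with edgeR's adjusted p up to 0.201 and 0.170. Rasa3, which encodes a Ras GTPase-activating protein, was the 1 gene of the group called between the untreated genotypes, against 1.83% of all tested genes. It was at 87.2 and 82.3 CPM in control cells against 149.7 and 142 CPM in libraries labelled knockout, without overlap (0.78, adjusted p = 0.0332 by edgeR), and the call was lost without any 1 of these 4 libraries (adjusted p up to 0.309). After TGF-β it was at 75.6 and 74.8 CPM against 101 and 124 CPM (0.58, adjusted p = 0.0295 by edgeR), a call held in 2 of 8 fits with a library left out. It was the 1 of these 8 genes that edgeR called higher there, against 8.47% of all tested genes. In the p38 and JNK cascades edgeR called 1 of 16 genes lower with TGF-β in control cells, Tab1 (-0.88). This was near the share of all tested genes, 4.47%. In libraries labelled knockout DESeq2 called Tab1 lower (-0.69) and Map2k3 higher (1.27). Between the treated genotypes edgeR called Mapk14, which encodes p38α, and Map2k7 higher (0.68 and 0.77) and Map2k6 lower (-0.84) in libraries labelled knockout. Of all tested genes, 8.47% were called higher and 6.57% lower. DESeq2 also called Map2k3 higher there (0.89, adjusted p = 0.0329, against 0.117 by edgeR). Between the untreated genotypes DESeq2 called Mapk11 higher (0.91, adjusted p = 0.0448, against 0.110 by edgeR). Of 17 receptors and adaptors, edgeR called 1 higher between the treated genotypes, Erbb2 (0.56), against 8.47% of all tested genes. Of 8 downstream kinases, Rps6ka1 fell with TGF-β in control cells (-0.71) and Mknk1 was higher between the treated genotypes (0.76), against 4.47% and 8.47% of all tested genes, and DESeq2 called Mapkapk2 higher with TGF-β in libraries labelled knockout (0.68, adjusted p = 0.0247, against 0.0737 by edgeR). Of 7 calls between the treated genotypes in these lists and the TGF-β response genes, 0 held in all 8 fits that left out 1 library each, and of 12 calls with TGF-β in each genotype, 3 did, those of Egfr, Skil and Snai1.

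Promoter sequences from RefSeq on GRCm38.p6, from 250 bases before to 50 bases after a gene's start, matched 8 of the 10 genes and had no entry for Dusp4 and Spry4. On both strands they were searched for TGACGTCA (in 1.79% of all 32851 promoters), TGACTCA with its reverse complement TGAGTCA (5.20%), CCGGAAGT (3.89%), GTCTAGAC (0.213%), GGAATTTCC (0.317%) and a single fixed 10-base form of the serum response (CArG) element, not its consensus (0.0639%). After the sequences had been seen, CAGAC (49.6%) and CCAAT (37.4%) were added. Dusp1 held TGACGTCA at -143 and CAGAC at -121. Dusp6 held GGAATTTCC at -154 and CCAAT at -46. In the window of Dusp10 CCAAT occurred at 4 places, -169, -161, -49 and 1, in that of Spry1 at -244 and in that of Spred2 at -2. These letters describe the windows and are no evidence of binding. The sequences before the start are shown for Dusp10 and Spry1, the genes called in both genotypes, and for Dusp1, which held TGACGTCA. In NCBIM37 they match chr1:185858010-185858259 on the plus strand (250 bases, 59.6% G or C), chr3:37538619-37538868 on the plus strand (250 bases, 62.4%) and chr17:26645465-26645667 on the minus strand (203 bases, 68.0%, with 47 exon bases left out). The sequence of Dusp10 lies within the annotated gene and outside its exons, and that of Spry1 ends at the annotated start. Capitals mark the matches, which for CCAAT and CAGAC may read ATTGG and GTCTG.
Dusp10: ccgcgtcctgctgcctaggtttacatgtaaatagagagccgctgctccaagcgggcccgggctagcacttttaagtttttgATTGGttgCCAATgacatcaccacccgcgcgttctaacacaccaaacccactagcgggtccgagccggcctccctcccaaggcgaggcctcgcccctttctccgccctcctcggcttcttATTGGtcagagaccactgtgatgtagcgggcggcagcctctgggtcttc
Spry1: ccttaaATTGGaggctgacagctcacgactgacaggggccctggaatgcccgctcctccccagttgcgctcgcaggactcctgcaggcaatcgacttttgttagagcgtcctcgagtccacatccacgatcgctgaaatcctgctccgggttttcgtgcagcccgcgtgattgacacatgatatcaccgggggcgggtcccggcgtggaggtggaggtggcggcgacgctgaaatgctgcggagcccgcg
Dusp1: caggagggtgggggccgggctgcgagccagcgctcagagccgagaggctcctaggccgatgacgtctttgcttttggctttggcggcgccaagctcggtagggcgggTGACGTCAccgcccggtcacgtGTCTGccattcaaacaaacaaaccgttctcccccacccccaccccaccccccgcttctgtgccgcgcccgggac

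The genes most like each of the 9 in their pattern were found by Pearson's r of log2 CPM over the 8 libraries, among 9499 or 9500 other genes with a mean of at least 10 CPM, as a description without a test. The libraries fall into groups and share their depth, so that r mixes differences between groups and between replicates. Nearest to Dusp10 were Wsb1 (r = 0.994) and Abhd2 (r = 0.992). Spry1 was nearest to Rev1 (r = 0.990) and Ppargc1a (r = 0.978). For Spred2 they were Usp22 (r = 0.994) and Sfxn3 (r = 0.993). For these 3 genes, each called with TGF-β, both values were 0.978 or above. Dusp5, with its split replicates, was nearest to Mprip (r = 0.988) and to Ereg (r = 0.986), which encodes the epidermal growth factor receptor ligand epiregulin. Dusp4 was nearest to Hmox1 (r = 0.985) and Arl8a (r = 0.983), and Dusp1 to Twistnb (r = 0.978) and Riok1 (r = 0.967). The nearest genes of Dusp6, Spry2 and Spred1 had r between 0.943 and 0.966.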

How the data were processed

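RNA sequencing libraries of NMuMG cells were used, 2 for each of 4 groups, and no library was left out. The authors deposited raw counts of reads per gene, without normalization. Per the paper's methods reads were aligned with subjunc to mm10 and mm9 and duplicates removed with samtools rmdup, whereas the labels name HISAT2, limma and mm10. Paper and labels also differ on RNA extraction, library kit, sequencer and read layout, and neither names the counting tool or its strand setting. The 37310 gene identifiers are those of GENCODE vM1 on NCBIM37, in the same order, which gave positions, exon lengths and symbols.

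Counts were scaled with TMM factors in edgeR 4.0.16 (R 4.3.3). The 13028 genes passing filterByExpr were fitted over the 4 groups with glmQLFit and tested with glmQLFTest, with Benjamini-Hochberg adjustment over all of them (biological coefficient of variation 0.180, 4 residual and 5.50 prior degrees of freedom). Calls used the paper's thresholds of 0.05 for the adjusted p and 0.5 for the absolute log2 fold change, and the adjusted p alone for the interaction. SE is the absolute log2 fold change divided by the square root of F. The log2 CPM used for likeness and replicate differences had a prior count of 2.

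Alternatives were DESeq2 1.42.0, limma-voom (limma 3.58.1), RLE factors, no filter, a mean of at least 10 counts, a replicate block, counts thinned to the smallest total, fits of just the 4 libraries compared, calls without the fold change threshold, and fits leaving out 1 library, where the lone library of a group is assumed to vary like the others. A crossed replicate block, the motifs CAGAC and CCAAT, and the comparison of replicates were chosen after seeing the data. Named are the 10 genes, genes of the listed pathways, markers, the targeted gene and the 2 nearest genes by r. The members and lists were chosen with earlier results of these data known. Comparisons share groups, so their results are not independent. Proteins were not compared, and the paper's other experiments were not used.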

Additional observations from a re-analysis of the deposited data

Results flagged for a closer look

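In 5 genes of the lists, both treated libraries lay on one side of the untreated ones in control cells and on the opposite side in libraries labelled knockout. How many of all tested genes did so was not counted, so that 5 is not shown to exceed the background. Each difference was tested as the interaction, and edgeR called none. Mapk11, a p38 kinase gene, had an interaction of -0.80 on the log2 scale (adjusted p = 0.553 by edgeR), with 20.0 and 18.2 CPM before and 34.6 and 22.2 CPM after TGF-β in control cells, and 36.4 and 36.0 CPM before and 26.2 and 35.6 CPM after it in libraries labelled knockout. Its difference between the untreated genotypes was called by DESeq2 (0.91, adjusted p = 0.0448) and not by edgeR (0.92, adjusted p = 0.110). Mapk14 had an interaction of 0.73 (adjusted p = 0.467 by edgeR), with 92.6 and 85.6 CPM before and 63.3 and 78.1 CPM after in control cells, and 90.2 and 83.1 CPM before and 112 and 115 CPM after in libraries labelled knockout. Mknk1 had an interaction of 0.71 (adjusted p = 0.509 by edgeR), with 23.8 and 20.3 CPM before and 13.5 and 14.9 CPM after in control cells, and 22.5 and 22.9 CPM before and 24.3 and 23.7 CPM after in libraries labelled knockout. Id1, a target of Smad signalling, had an interaction of 0.96 (adjusted p = 0.444 by edgeR), with 119 and 102 CPM before and 76.2 and 65.2 CPM after in control cells, and 64.4 and 74.3 CPM before and 96.0 and 76.1 CPM after in libraries labelled knockout. Between the untreated genotypes Id1 was called lower in libraries labelled knockout by DESeq2 (-0.68, adjusted p = 0.0363) and not by edgeR (-0.67, adjusted p = 0.102). Gm13507 had a fitted interaction of -8.41 (adjusted p = 0.430 by edgeR), which depends on the prior count because the treated libraries labelled knockout had 0 counts.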

How the results depend on the processing

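Of 103 alternative values of the 6 calls, 99 kept direction and call and 4 lost the call, each with a library left out. Of 765 alternative values of single genes, 713 kept direction and side of the threshold, 27 reversed, 21 became called and 4 lost the call. Values without the fold change threshold come from the main fit, so that no call could be lost among them. The medians of the 9 genes moved when 1 library was left out. Between treated genotypes the median ranged from -0.15 to 0.88, and in the interaction from 0.09 to 1.09. The median absolute log2 difference between replicates was 0.20 to 0.33 in the 4 groups. With TGF-β in libraries labelled knockout, the median ranged from 0.37 to 1.03 with 1 library left out. Where a cause is not given, it was not tested. Without the filter, 2 genes were called higher with TGF-β in control cells, 5 in libraries labelled knockout, 4 higher and 1 lower between treated genotypes and 1 higher in the interaction. The matching counts of all 20463 genes then tested were 1019, 1206, 1667, 1156 and 147. In limma-voom 1 was lower between treated genotypes. With a replicate block, whose numbers are not shown to pair libraries (r of replicate differences 0.30 to -0.47 between groups), Dusp6 with TGF-β in libraries labelled knockout was at -0.0168, and 831, 676, 150 and 1490 genes were called in the 4 comparisons in place of 1194, 889, 238 and 1959. The crossed replicate block, chosen after seeing the data, gave 2 genes called higher and 2809 genes in all between treated genotypes. Dusp6 was also at -0.20 in limma-voom and -0.0038 with a mean of at least 10 counts, and the interaction of Dusp1 was 0.0495 in thinned counts.

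With 1 library left out, called-higher counts ranged from 0 to 1 with TGF-β in control cells, 1 to 5 in libraries labelled knockout and 1 to 3 between treated genotypes, and called-lower counts there from 0 to 1. With TGF-β in control cells Dusp4 ranged from -0.0743 to 0.85, Dusp6 from -1.33 to 0.43 and Spred1 from -0.0934 to 0.28. In libraries labelled knockout Dusp6 ranged from -0.95 to 0.61 and Spry2 from -0.05 to 2.05. Dusp5 ranged from -0.19 to 0.30 between untreated genotypes. Between treated genotypes Dusp5 ranged from -1.10 to 2.28, Dusp6 from -1.24 to 0.88, Dusp10 from -0.23 to 0.53 and Spry2 from -0.0791 to 2.21. Interactions ranged from -0.68 to 0.76 for Dusp1, -1.11 to 2.27 for Dusp5, -0.75 to 1.36 for Dusp6 and -0.33 to 0.20 for Spry1. All genes called ranged from 145 to 1484, 136 to 1381, 42 to 390 and 477 to 2762 in the 4 comparisons, lowest without replicate 1 of untreated control cells, replicate 1 of untreated libraries labelled knockout, replicate 2 of untreated control cells and replicate 2 of treated libraries labelled knockout. With only the 4 libraries of a comparison, 470 genes were called with TGF-β in control cells, 804 between untreated and 410 between treated genotypes. Spry4, with at most 12 counts in a library, was not tested.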
